A study of Arabidopsis halleri and Arabidopsis lyrata subsp. petraea with 24 samples.

Results

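The leaves of Arabidopsis halleri were compared with those of Arabidopsis lyrata subsp. petraea (A. petraea below) on 12 of the 24 arrays of the series, 6 for each species. These 12 arrays were not taken by their printed group labels. Each array title prints a serial number and a group, but leaf and root marker genes matched the printed organ on only 9 of 24 arrays. When the serial numbers were sorted as text (1, 10, 11 and so on) and the k-th array was given the group printed beside serial k, the markers matched the organ on 23 of 24 arrays. By this inferred order the A. halleri leaves were serials 15, 16, 17, 18, 19 and 2, and the A. petraea leaves were serials 4, 5, 6, 7, 8 and 9.

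The order was chosen from the organ markers, so their agreement with it is a description and carries no test. Nothing in the labels checks the species or the zinc treatment that the order gives, and which side of each difference is called A. halleri rests on it. Of the 12 arrays, 4 have a printed title that says leaves and 8 one that says roots, and the printed species was the inferred one on 1 array and the other one on 11. With the groups as printed, the same comparison called 0 probe sets with limma at an adjusted p under 0.05, and 839 of 17059 had an unadjusted p under 0.05. By the inferred order, the arrays printed as leaves of either species include both leaf and root arrays. The 0 is therefore no test of the species that the order gives.

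Total RNA was hybridised to Affymetrix ATH1 arrays, whose probes were designed on Arabidopsis thaliana. By the inferred order, each species had 3 leaf arrays from plants on full mineral medium, called control, and 3 from plants given 25 µM zinc. The leaves were rosette leaves, taken at the stage of 10 to 16 rosette leaves, and how much zinc the control plants received is not stated in the labels. The study's title names zinc tolerance and accumulation by A. halleri as its subject. Whether arrays that share a group hold RNA of separate plants is not stated, and p-values therefore describe no more than the variation among these arrays, part of which may be technical.

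Arabidopsis halleri is a zinc hyperaccumulator: it moves zinc from root to shoot and stores it in its leaves, while A. petraea is a close relative that does neither to that degree. Zinc enters plant cells mainly through ZIP transporters, is loaded into the xylem by P-type ATPases of the HMA family, and is stored in the vacuole by transporters of the MTP family. Gene roles given below are those known in A. thaliana. A probe that does not match the sequence of one species loses signal in that species without any difference in transcript level, so a species difference on these arrays cannot be told apart from a difference in probe match. In pieces of whole leaf, fewer cells of a type and less RNA per cell cannot be told apart either.

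On the 12 leaf arrays the mean of 4 leaf markers (RCA, PSAE-1, PRK and SBPASE, all of photosynthesis) exceeded the mean of 3 root markers (PYK10, EXPA7 and EXPA18) by 3.24 to 5.83 on the log2(signal + 16) scale. On the root arrays the same difference was -3.89 to -0.10, with the exception of serial 24. That array, A. petraea high zinc roots by the inferred order, had leaf markers 3.43 above root markers. Counts from roots are therefore given with and without it. Root values and organ differences of single genes include it unless stated otherwise. Serial 5, an A. petraea control leaf array, had a root marker mean of 7.05 against 5.41 to 6.21 on the other 11 leaf arrays. The root marker mean ranged from 5.41 to 6.21 in A. halleri leaves and from 5.50 to 7.05 in A. petraea leaves. The part of root tissue in the results was not tested. Array medians ranged from 43 to 60.6, and 21.2% to 27.8% of the signals of a leaf array were under 16.

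**Figure D1:**
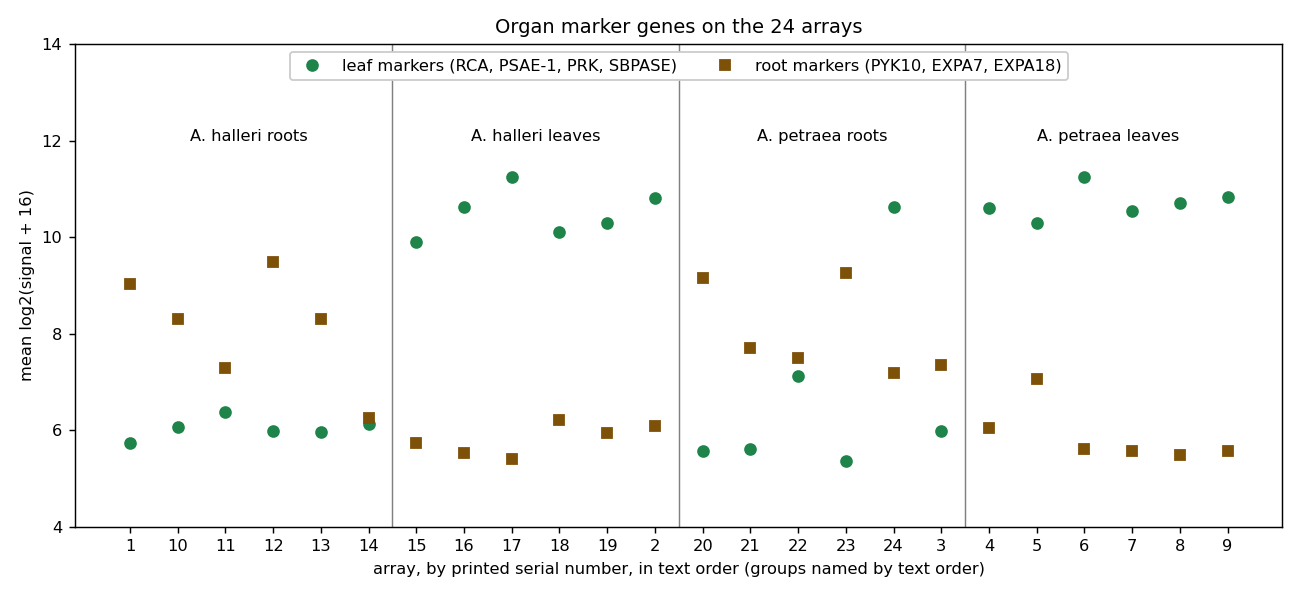
Mean log2(signal + 16) of 4 leaf markers (circles) and 3 root markers (squares) on each of the 24 arrays, placed in the text order of their serial numbers, with the groups that this order gives. Leaf markers lie above root markers on all 12 leaf arrays and on serial 24 among the roots, and serial 5 has the highest root marker mean of the leaf arrays, 7.05.

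Leaves of the species differed in 954 of 17059 probe sets tested, which is 5.59%. Of these, 433 (2.54%) were higher and 521 (3.05%) were lower in A. halleri, by limma with zinc as a covariate and an adjusted p under 0.05. The difference was at least 2-fold for 668 of them, 305 higher and 363 lower in A. halleri. The median difference over all probe sets tested was 0.00045, and the median size was 0.28 over all and 1.22 over those called. Of the 954 called probe sets, 518 had 1 gene in the annotation, 26 had several and 410 were unnamed here. The 6 arrays of one species did not overlap with the 6 of the other in 773 probe sets (4.53%), of which 622 were called. Of those called, 12.9% had a mean signal under 16 in one of the species, against 1.67% of all tested. The probe sets with the lowest means were left out before testing. A probe set dim in either species was thus more likely to be tested if it was bright in the other. This filter by itself favours the contrast, so no conclusion is drawn from it. The 123 called probe sets with a dim value were split evenly, 61 with the dim value in A. halleri and 62 with the dim value in A. petraea.

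The 12 leaf arrays were not 12 independent ones. By the inferred order each species has arrays numbered 1, 2 and 3 at each zinc level, and the control and high zinc array of one species and number had a median correlation of r = 0.948 (6 pairs, 0.849 to 0.949). Arrays of one species with different numbers had a median r of 0.82, arrays of the other species with the same number 0.850, and those with neither in common 0.764. The number of called probe sets moved with how this was handled, by alternatives chosen after seeing the data except for the first. With the replicate number as a block, 3182 probe sets were called, all 954 among them. With each species and number pair as a random block, 288 were called, and with pairs averaged to 3 values for each species, 81. With both the block and averaged pairs, 1299 were called, 785 of the 954 among them.

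**Figure D2:**
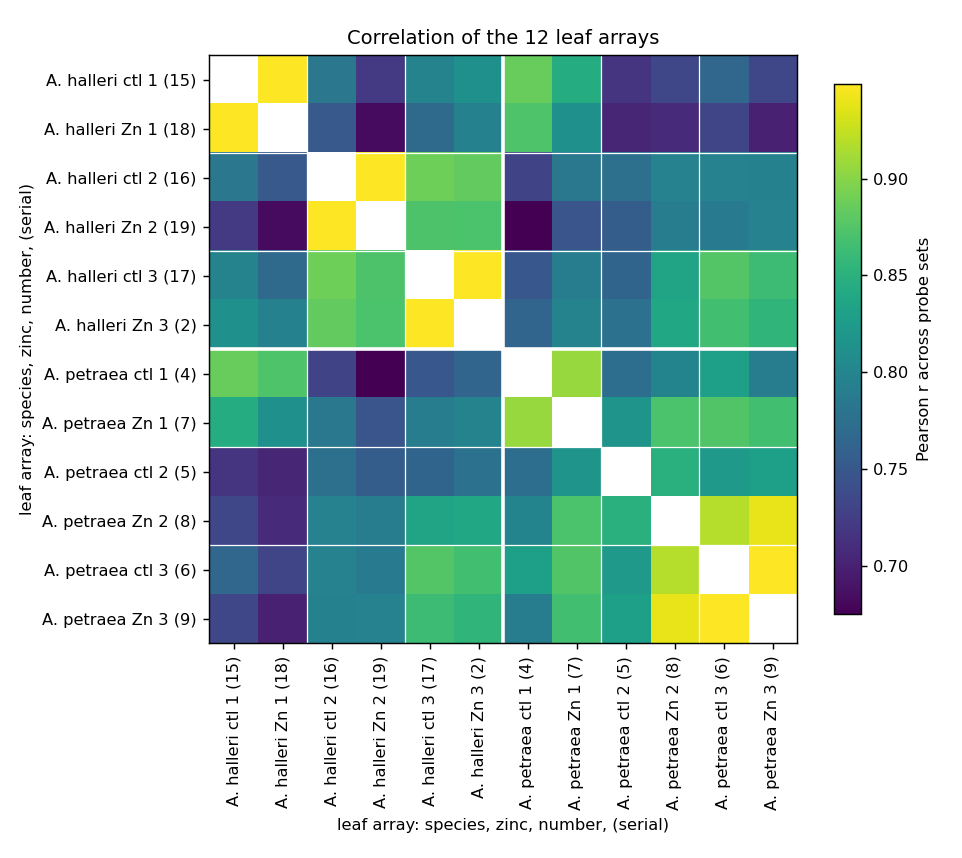
Pearson r across the tested probe sets between each pair of the 12 leaf arrays, ordered by species, replicate number and zinc level (ctl, control; Zn, high zinc; serial number in brackets). The control and high zinc arrays of one species and number correlate at 0.849 to 0.949, lowest for serials 5 and 8, and serial 8 is the array whose best match has another number.

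Single arrays also moved the count. Without A. petraea high zinc array 2 (serial 8) 560 probe sets were called and without array 3 (serial 9) 574, while without A. petraea control array 3 (serial 6) those higher in A. halleri numbered 277. Without serial 5, the leaf array with raised root markers, 895 were called, 415 higher and 480 lower in A. halleri.

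Among called genes with 1 annotation and no overlap between species, the difference lay furthest below 0 in AT1G54410, which encodes a small dehydrin, a protein that protects cells during water loss and can bind metal ions. Its signal in A. halleri was 8.6 at the lowest, 17.0 at the median and 25.9 at the highest, against 1916.7, 3088.85 and 4127.9 in A. petraea. No A. halleri array came near the lowest A. petraea array. The difference was -6.58 ± 0.25 (SE, n = 6 and 6; limma adjusted p = 6.71e-09) on the log2(signal + 16) scale. In roots it was -4.85 (adjusted p = 8.86e-09), and -4.67 without serial 24, so this gene was lower in A. halleri in both organs. A second dehydrin, LTI30, which accumulates in the cold, had signals of 2.1 to 4.2 in A. halleri leaves and 95.5 to 131.5 in A. petraea leaves. Its difference was -2.71 ± 0.15 (adjusted p = 1.37e-07), and -2.96 in roots (adjusted p = 2.17e-09).

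AOP3, an enzyme that turns methylsulfinylalkyl glucosinolates into their hydroxyalkyl form, had the next lowest difference. Its A. halleri signals ran from 12.4 through a median of 34.0 to 47.8, and its A. petraea signals from 1747.5 through 3336.4 to 4650.0. The groups did not overlap, and the difference was -6.06 ± 0.28 (adjusted p = 5.75e-08). In roots it was -2.62 (adjusted p = 0.0267), where serial 24 was the highest A. petraea array, at 2172.6 against a median of 208.8. Without serial 24 the root difference was -1.97 (adjusted p = 0.0633) and the leaf difference exceeded it by -4.09 (adjusted p = 0.0134).

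AT1G72290, a protease inhibitor of the Kunitz family, was bright in A. petraea leaves. The signal was 103.1, 242.6 and 326.8 at the lowest, median and highest A. halleri array and 2876.7, 5428.8 and 11175.7 in A. petraea. The difference was -4.56 ± 0.36 (adjusted p = 6.71e-06), with no overlap. In roots the median was 9.2 in A. halleri and 7.1 in A. petraea, with serial 24 at 5424.1. The root difference was -1.22 (adjusted p = 0.454) with serial 24 and 0.10 (adjusted p = 0.909) without it. Only without serial 24 was the difference between the organs called, at -4.66 (adjusted p = 3.77e-06).

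Other genes lower in A. halleri leaves belonged to varied families. CYP71B26, a cytochrome P450 of a large family of plant oxidases, had a median of 10.1 for A. halleri and 649.4 for A. petraea, a difference of -4.43 ± 0.24 (adjusted p = 1.37e-07). AT4G23670 and AT4G23680 are neighbouring genes for major latex protein-like proteins. Their A. halleri signals did not exceed 1.7 and 1.9, while their lowest A. petraea signals were 133.2 and 52.7, and the differences were -3.74 ± 0.19 and -2.77 ± 0.21. AT1G68600, of the family of aluminium-activated malate transporters, differed by -3.55 ± 0.29, from a median of 4.4 in A. halleri to 231.55 in A. petraea. In all 4 the species difference was further below 0 in leaves than in roots, by -3.67 in CYP71B26, -2.47 in AT4G23670, -2.89 in AT1G68600 and -2.45 in AT4G23680, with adjusted p from 0.00434 to 0.0245. With pairs of arrays as a random block, and serial 24 included, none of these 4 organ differences was called (adjusted p = 0.0790, 0.173, 0.0892 and 0.103 in that order). Without serial 24, and without the random block, they were -4.19, -2.69, -3.26 and -2.76. All 4 were then called (limma adjusted p = 1.53e-05, 0.00967, 2.24e-04 and 0.00115). Both changes together were not fitted. Root medians in A. halleri and A. petraea were 32.25 and 50.6 in CYP71B26 and 30.85 and 82.25 in AT4G23670. They were 4.45 and 13.85 in AT1G68600 and 19.05 and 25 in AT4G23680. AT4G23670 was called in roots as well, at -1.27 (limma adjusted p = 0.0450, and 0.115 without serial 24). In CYP71B26, AT1G68600 and AT4G23680 a species difference would be hard to see at such low root signals, and this was not tested.

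AT4G19200, a proline-rich protein, had a signal of at most 7.6 in A. halleri leaves and at least 416.4 in A. petraea leaves. The difference was -4.87 ± 0.24 (adjusted p = 6.97e-08) in leaves and -4.46 (adjusted p = 3.41e-11) in roots. AT5G45350, also proline-rich, differed by -3.35 ± 0.27 in leaves and -1.93 in roots, and AT5G53880 by -3.53 ± 0.52 in leaves and -3.25 in roots. These 3 were called in both organs with the same sign. With pairs averaged AT5G53880 lost the leaf call (limma adjusted p = 0.0829), while AT4G19200 and AT5G45350 kept it. AT2G44240 differed by -3.0 ± 0.16 in leaves, from a median of 5.3 in A. halleri to 162.2 in A. petraea, and by -0.60 (adjusted p = 0.407) in roots. Of 2 further genes chosen by the smallest p, AT5G56920, of the cystatin family of protease inhibitors, differed by -2.66 ± 0.22, and AT2G15580, a RING-type zinc finger protein, by -2.24 ± 0.20.

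AT5G04120, of the phosphoglycerate mutase family, had the highest difference among called genes with 1 annotation and no overlap. Its signal was 249.0, 458.7 and 752.9 at the lowest, median and highest A. halleri array, and 5.1, 7.75 and 19.9 in A. petraea. All A. petraea arrays lay near or below the pseudocount of 16, and none overlapped with A. halleri. The difference was 4.14 ± 0.24 (SE, n = 6 and 6; limma adjusted p = 2.44e-07). In roots both species were dim, with medians of 13.4 and 12.3 and a difference of -0.05 (adjusted p = 0.950), and the leaf difference exceeded the root difference by 4.19 (adjusted p = 1.64e-05). With a pseudocount of 1 the leaf difference was 5.48 and with 64 it was 2.74, so its size depends on how low signals are damped.

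Hsp70-2, a chaperone of the heat shock protein 70 family, had a wide spread. A. halleri signals ran from 127.1 through 539.6 to 1582.2, and A. petraea signals from 14.6 through 18.25 to 57.4, the highest being serial 5. The difference was 3.75 ± 0.52 (adjusted p = 8.19e-04) in leaves and 2.37 (adjusted p = 0.00737) in roots. With pairs of arrays averaged, its leaf adjusted p was 0.0605.

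AT3G57020, a strictosidine synthase-like protein, was bright and even in A. halleri leaves, with 798.4 at the lowest and 1299.7 at the highest array. In A. petraea it ranged from 25.4 to 170.1. The difference was 3.48 ± 0.34 (adjusted p = 5.54e-05). In roots the medians were 11.65 in A. halleri and 40.65 in A. petraea, a difference of -0.79 (adjusted p = 0.194), and the difference between the organs was 4.26 (adjusted p = 5.29e-05).

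A defensin-like peptide gene, AT3G05730, differed by 3.33 ± 0.35, with medians of 391.1 in A. halleri leaves and 12.15 in A. petraea leaves. AT3G05400, of the sugar transporter family, differed by 3.29 ± 0.46, and AT3G16670, of a family of pollen allergen-like proteins, by 3.17 ± 0.40. AT1G33600, a leucine-rich repeat protein, differed by 3.13 ± 0.44 and AT4G33666 by 2.95 ± 0.34. SUFE2, which activates cysteine desulfurase in the making of iron-sulfur clusters, differed by 2.84 ± 0.39, from a median of 14.3 in A. petraea to 164.55 in A. halleri. In all 6 genes the species did not overlap in leaves, by the rule that chose them. With pairs averaged, AT3G05400, AT3G16670 and AT1G33600 lost the leaf call (limma adjusted p = 0.0510, 0.0582 and 0.0537). AT3G05730, AT4G33666 and SUFE2 kept it (0.0265, 0.0260 and 0.0478). In all 6 the leaf difference exceeded the root difference by the test between organs. AT3G05400 and AT4G33666 lost that call with pairs as a random block (adjusted p = 0.173 and 0.122). Root medians were low in A. halleri and A. petraea in AT3G05730 (29.2 and 24.4) and AT3G05400 (32.7 and 12.75). So were those of AT1G33600 (9.1 and 7.15) and SUFE2 (13.15 and 29.05). At such low root signals a species difference would be hard to see. Root medians were higher in AT3G16670 (196.2 and 134.4) and AT4G33666 (103.7 and 98.8).

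AT5G47700, a P1 protein of the large subunit stalk, had a median of 1376.35 in A. halleri leaves and 231.8 in A. petraea leaves. Its difference was 2.77 ± 0.37 (adjusted p = 6.35e-04) in leaves and 2.71 (adjusted p = 3.14e-05) in roots. AT3G06700, ribosomal protein L29 of the large subunit, differed by 2.65 ± 0.26 in leaves and 3.08 in roots. Ribosomal genes did not share a direction: AT3G06680, the other L29 gene, differed by -2.71 ± 0.41 in leaves and -2.84 in roots, and AT2G27710, a P2 stalk protein, by -2.54 ± 0.23 and -2.16, all called. Both were chosen after their values were seen. AT4G25660, a protein of the PPPDE peptidase family, AT1G02300, a cathepsin B-like protease, and AT5G27990, of the TSR2 family in ribosomal RNA processing, differed by 1.64 ± 0.19, 1.99 ± 0.24 and 1.75 ± 0.19. These 3 and the 2 ribosomal genes that were higher were called in roots too. With pairs averaged AT5G47700, AT3G06680 and AT4G25660 lost the leaf call (limma adjusted p = 0.0711, 0.0982 and 0.0730), and the others of this paragraph kept it.

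For metal handling, ZIP6 and ZIP9 were the 2 of 15 listed ZIP transporters that could be matched to a probe set, so most known zinc genes, HMA4 and MTP1 among them, were not analysed here. ZIP6 signals were 189.0, 251.15 and 695.2 in A. halleri leaves and 78.5, 104.85 and 166.2 in A. petraea leaves. The highest A. halleri values, 648.2 and 695.2, came from serials 15 and 18, a control and a high zinc array with the same number. The difference was 1.39 ± 0.35 (adjusted p = 0.0359), without overlap, and its call was lost in 8 of 12 fits that each left out 1 array. With each pair as a random block its adjusted p was 0.0878. ZIP9 was level in leaves, with medians of 50.75 and 50.65 and a difference of -0.03 ± 0.17 (adjusted p = 0.942). In roots ZIP9 had a median of 310.0 for A. halleri and 46.3 for A. petraea, a difference of 2.52 (adjusted p = 0.00238), and the difference between the organs was -2.55 (adjusted p = 0.0847).

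Of 6 tested members of the list of metal efflux and vacuolar transporters, 1 was called higher in A. halleri and 0 lower, and the median difference was 0.16. Over all probe sets tested, 2.54% were called higher and 3.05% lower, and the median difference was 0.00045. The called gene was AT3G58060, known as MTP8, a manganese transporter of the vacuole. Its A. halleri signals were 69.6, 146.3 and 237.5, and its A. petraea signals 4.9, 33.05 and 141.7, so the groups overlapped. The difference was 1.77 ± 0.45 (adjusted p = 0.0372), and 7 of 12 fits that each left out 1 array lost the call. MTP11, a manganese transporter of the Golgi, had a difference of 1.05 ± 0.31 (adjusted p = 0.0675, and 0.00147 with the replicate block). The other 4 members lay between -0.56 and 0.22. MT1C, a metallothionein that binds metal ions, had medians of 623.8 for A. halleri and 182.5 for A. petraea. Its difference was 1.03 ± 0.70 (adjusted p = 0.460). With the block its adjusted p was 0.0388, with the block on averaged pairs 0.0407, and with the block and random pairs 0.0719.

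Defensins are small secreted antifungal peptides, and some A. halleri defensins raise zinc tolerance when placed in other organisms. PDF1.4 signals were 57.8, 201.5 and 667.1 in A. halleri leaves and 21.7, 35.35 and 56.8 in A. petraea leaves. The lowest A. halleri array lay just above the highest A. petraea array, and the difference was 2.07 ± 0.43 (adjusted p = 0.0123). In roots the medians were 56.45 and 54.25, with a difference of -0.09 (adjusted p = 0.925). The difference between the organs was 2.16 (adjusted p = 0.0678, and 0.0476 without serial 24). PDF1.2B, on a probe set that may also take signal from near-identical copies, was bright in both species, at medians of 4065.2 and 2156.25, with a difference of 1.06 ± 0.46 (adjusted p = 0.217). Its adjusted p was 0.0364 with the block but 0.0504 with the block on averaged pairs and 0.0658 with the block and random pairs. PDF2.5 had a difference of -0.19 (adjusted p = 0.739). Of the 3 defensins tested, 1 was called, against 5.59% of all probe sets tested.

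Among 4 tested genes of iron deficiency, 1 was called lower in A. halleri and 0 higher, and the median difference was -1.61. Of all probe sets tested, 3.05% were called lower, and their median difference was 0.00045. A count from so few genes says little about the list. BHLH101, a transcription factor that is induced when iron is short, had A. halleri signals of 27.4, 5.2 and 5.5 in control leaves and 38.0, 7.3 and 4.1 in high zinc leaves. In A. petraea the signals were 27.2, 64 and 31.2 in control leaves and 489.5, 177.2 and 140.4 in high zinc leaves. The high values were thus those of the 3 A. petraea high zinc arrays, and the species overlapped among control arrays. The difference was -2.05 ± 0.44 over both zinc levels (adjusted p = 0.0152), -1.01 in control and -3.08 in high zinc.

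AT1G47400, which encodes the iron-signalling peptide IMA1, had a like layout. Its A. halleri signals were 47.7, 65 and 68.6 in control leaves and 517.5, 62.8 and 93.3 in high zinc leaves. Its A. petraea signals were 58.4, 214.8 and 95.2 in control leaves and 9290.3, 1504.4 and 860.6 in high zinc leaves. All 3 A. petraea high zinc arrays exceeded every A. halleri array. The difference over both zinc levels was -2.25 ± 0.71 (adjusted p = 0.0825), -0.71 in control and -3.80 in high zinc. Its adjusted p was 0.0567 with the block, 0.106 with the block and random pairs, and 5.41e-04 with the block on averaged pairs. A test of whether the species difference itself depended on zinc was added after these values were seen. It gave -2.06 ± 0.71 for BHLH101 and -3.09 ± 1.19 for AT1G47400. It did not pair the control and high zinc arrays of one number, so a lack of calls cannot decide the question. Over all 17059 probe sets that test called 0 with limma (299 at an unadjusted p under 0.05), and both genes had an adjusted p of 1.00. FRO1, of the ferric reductase family, differed by -1.17 ± 0.32 (adjusted p = 0.0511, and 2.63e-04 with the block), and PYE, a regulator of the iron response, by -0.20.

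**Figure D3:**
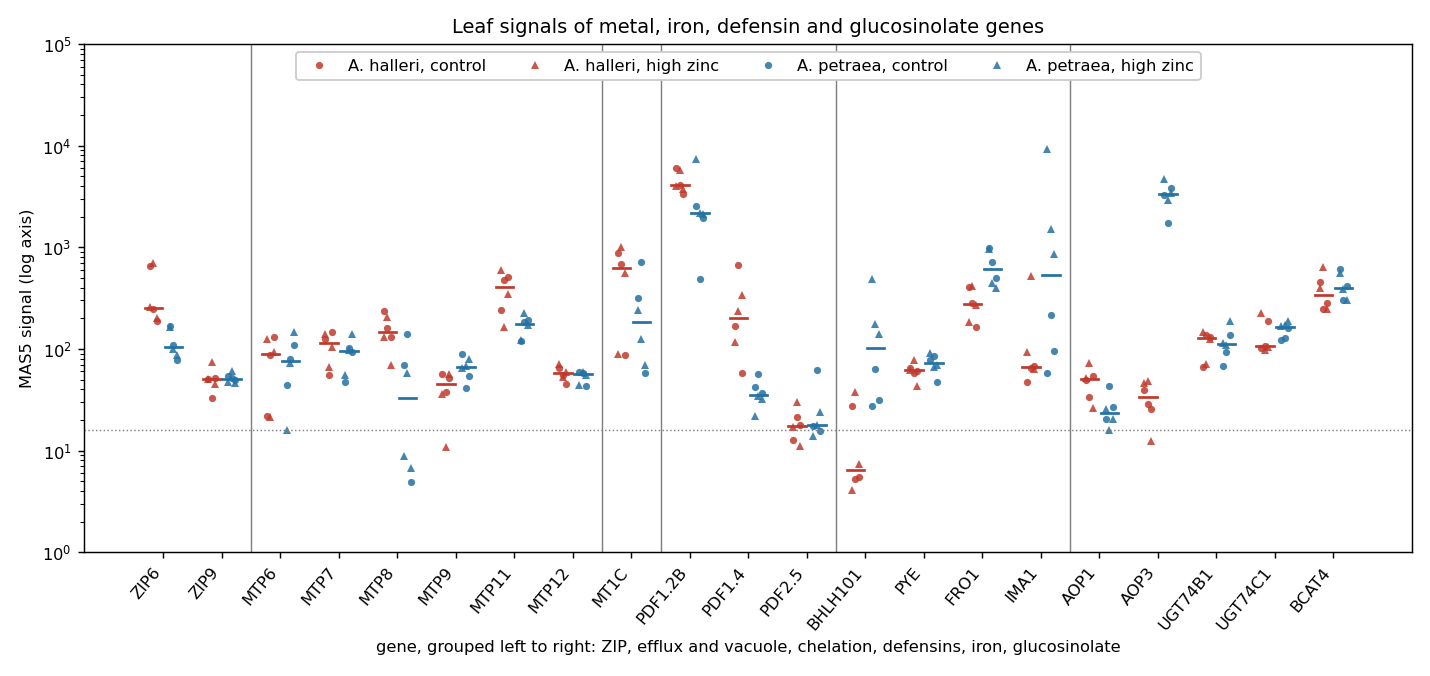
MAS5 signal on a log axis on the 12 leaf arrays for the tested members of the lists of ZIP transporters, metal efflux and vacuolar transporters, chelators, defensins, iron deficiency genes and glucosinolate genes, in the same colours and symbols as the plot of the largest differences. ZIP6 and PDF1.4 are higher in A. halleri and AOP3 lower, without overlap, and in BHLH101 and IMA1 the blue triangles of A. petraea high zinc leaves, from 140.4 to 489.5 and from 860.6 to 9290.3, lie above the rest.

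The remaining lists held few called members. Over all probe sets tested 5.59% were called, and 1 or 2 calls in so short a list say little about it. Of 5 glucosinolate genes tested, 1 was called lower in A. halleri, AOP3, and the median difference was -0.20, with AOP1, its neighbour in the genome, at 0.61 (adjusted p = 0.127). Of 5 antioxidant genes, 1 was called, TAPX, the thylakoid ascorbate peroxidase, at -1.70 ± 0.33 (adjusted p = 0.00796). Its A. halleri signals of 67.8 to 223.8 did not overlap with the 331.2 to 1005.1 of A. petraea. Of 6 genes of cold and dehydration, 2 were called, both lower in A. halleri, LTI30 and COR27, a cold-induced clock regulator at -1.20 ± 0.29 (adjusted p = 0.0282). The call of COR27 was lost in 6 of 12 fits that each left out 1 array, with a pseudocount of 1 and with all 24 arrays in 1 fit. DFR, dihydroflavonol reductase of anthocyanin synthesis, was the 1 tested gene of its list and was higher, at 1.24 ± 0.26 (adjusted p = 0.0145), with signals of 151.4 to 476.6 against 59.1 to 138.6. Of 8 photosynthesis genes, 1 was called, RCA, the activase of Rubisco, at -1.29 ± 0.34 (adjusted p = 0.0431). This is a description, because RCA was among the markers that chose the order, and the call was lost in 10 of 12 fits that each left out 1 array and in 8 of 17 other alternatives. With the replicate block GI of the circadian clock, at -1.18, and LHCB4.2, an antenna protein of photosystem II, at 1.27, were called as well (adjusted p = 0.00104 and 0.0109), and with the block on averaged pairs they stayed called (0.0114 and 0.0138). CCL, GR1 and TUB6, at -0.65, -0.94 and -0.67, were called with the block but not with the block on averaged pairs (adjusted p = 0.122, 0.151 and 0.0967). The same held for PSAE-1, at 0.59, which chose the order and is a description. Of 3 sulfate assimilation genes, 1 suberin gene and 3 reference genes, 0 were called without the block. Over all lists, 56 of 279 genes could be matched and 53 were tested.

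Roots of the same species gave 804 called probe sets (4.71%), and 599 without serial 24. The root fit was made over all 24 arrays in 8 groups, unlike the leaf fit on the 12 leaf arrays. In such a fit 1039 probe sets were called in leaves, so the leaf and root calls compared here come from unlike fits. Of 901 leaf calls that were tested in roots, 194 were also called there with the same sign (21.5% of these leaf calls and 25.2% of 771 root calls tested in leaves), 71 higher and 123 lower in A. halleri, and 0 were called with the opposite sign. Without serial 24 these were 167 with the same and 2 with the opposite sign. Across 16482 probe sets the leaf and root differences had a Pearson r of 0.43, and 0.39 without serial 24. Probe match is shared by both organs, and probe sets are not independent, so this is a description.

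The difference between the organs in the species difference was called for 89 probe sets (0.522%), 57 with the leaf difference above the root difference, with 1790 at an unadjusted p under 0.05. Among the 954 leaf calls 61 had such a difference. Without serial 24 the test called 139 probe sets, 84 of them the same. Of the 15 named genes with a called difference between organs, 6 kept the call with pairs as a random block (AT5G04120, AT3G57020, AT3G05730, AT3G16670, AT1G33600 and SUFE2) and 9 lost it. AT2G44240, at -2.40 (adjusted p = 0.0492), lost its call between organs in all 12 fits that each left out 1 leaf array, AT3G05400 lost its call without serial 8 or serial 9, and AT4G23670 without serial 6 or serial 8. Without serial 24 AT2G44240 stood at -2.87 (adjusted p = 3.60e-04).

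**Figure D4:**
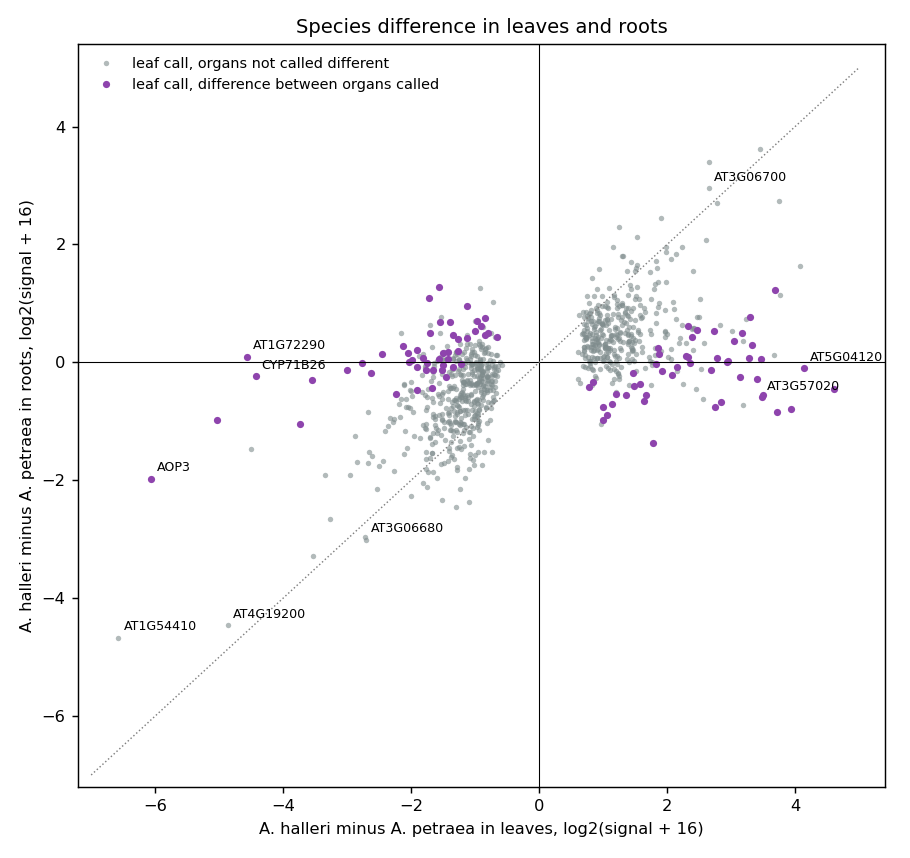
A. halleri minus A. petraea in leaves (horizontal) and in roots without serial 24 (vertical), both as log2(signal + 16), for each probe set called in leaves and tested in roots, with the diagonal dotted. Purple points have a called difference between the organs; AT4G19200 lies near the diagonal, AT1G54410 is low in both organs (-6.58 in leaves and -4.67 in roots), and AT5G04120, AT3G57020, CYP71B26 and AT1G72290 lie near 0 in roots.

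Control and high zinc leaves were also compared apart. Of 936 called probe sets with a value at both levels, 936 had the same sign in both, which the choice of called probe sets favours. With control arrays alone 27 probe sets were called and with high zinc arrays alone 132, each with 3 arrays for each species. Of the 49 called genes that are named here or below, 15 stayed called in control arrays alone and 25 in high zinc arrays alone, and 0 changed sign. With each pair of arrays as a random block 37 of the 49 stayed called, and the 12 that did not were ZIP6, MTP8, BHLH101, COR27, RCA, DFR, SRX, SWEET17, BUB3.1, BUB3.2, JAL23 and CYP71B34. With pairs averaged 23 stayed called, with AT1G54410 at an adjusted p of 5.20e-04, AOP3 at 9.54e-04, LTI30 at 0.00155 and AT5G04120 at 0.00200.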

How the data were processed

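The deposited values were linear intensity values, 1 for each probe set, made by the authors with MAS5, per the submitters' processing notes, which name no version here. MAS5 treats each array by itself. The deposited signals had a trimmed mean of 100.0045 to 100.0107 on all arrays, which shows a common scaling. Detection calls were not used here. The number of arrays, 6 for each species, limits the precision.

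Array groups were taken from the text order of the printed serial numbers, applied by a fixed rule. Signals were analysed as log2(signal + 16), a scale that understates differences of dim genes. Of 22810 probe sets, 64 array controls were left out, and so was the lowest 25% by mean, which left 17059. Names came from the platform annotation, which gave 13513 probe sets 1 gene and 503 several and left 8794 unnamed here.

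Leaves were fitted with limma 3.58.1 in R 4.3.3 on species and zinc, with eBayes trend and robust settings, two-sided tests and Benjamini-Hochberg adjustment at 0.05. Root differences and differences between organs came from a fit over all 24 arrays. The fit was tested on simulated data whose arrays varied independently, so that test does not cover the correlation among the arrays seen here. Same-numbered arrays deviated together in all 12 pairs between species (r from 0.18 to 0.64) and in 6 within species (0.29 to 0.82). A. petraea high zinc array 2 had r = 0.2346 with A. halleri control array 3, against 0.2179 with control array 2. With A. halleri high zinc arrays 3 and 2 it had 0.2121 and 0.1818, so for this array the same number was not the closest. The number was taken to pair arrays, and fits with it as a block are given where calls change. No array repeated the signals of another.

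Genes named were the 10 highest, the 10 lowest and the 4 with the smallest p in each direction not yet named, among called genes without overlap, plus called members of gene lists and the tested members of the metal, defensin, iron and glucosinolate lists. The members and lists were chosen with earlier results of these data known. Further genes in the closing section were chosen after their values were seen.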

Additional observations from a re-analysis of the deposited data

Results flagged for a closer look

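In 8 of 110 sets of 6 arrays, 1 array stood apart from the other 5 by Dixon's criterion, which chance alone meets in about 5% of sets. Serial 5, the A. petraea leaf array with raised root markers, was the high array for Hsp70-2 at 57.4, for AT3G05730 at 30.9 and for AT3G16670 at 134.9. Serial 7, an A. petraea high zinc array, was high for AT5G04120 at 19.9 and low for BUB3.2 at 55.3. Serial 4 was high for TAPX at 1005.1. Among A. halleri arrays, serial 17 was low for AT3G57020 at 798.4, and serial 18 was high for AT1G47400 (IMA1) at 517.5. The part of root tissue in the values of serial 5 was not tested.

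In 15 named genes the species difference in leaves differed from that in roots by limma's test of that difference, and 9 of the 15 lost this call with pairs of arrays as a random block (AT3G05400, AT4G33666, CYP71B26, AT4G23670, AT1G68600, AT2G44240, AT4G23680, JAL22 and CYP71B35). On the log2(signal + 16) scale the leaf difference exceeded the root difference by 4.19 in AT5G04120, 4.26 in AT3G57020, 3.11 in AT3G05730, 2.53 in AT3G05400, 2.7 in AT3G16670, 3.28 in AT1G33600, 2.67 in AT4G33666, 3.43 in SUFE2 and 2.03 in JAL22. It lay below it, with values of -3.67 in CYP71B26, -2.47 in AT4G23670, -2.89 in AT1G68600, -2.4 in AT2G44240, -2.45 in AT4G23680 and -1.99 in CYP71B35. Serial 24, which had leaf markers among the root arrays, is included in these values. Several of these genes were dim in the roots of both species, where a species difference would be hard to see.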

How the results depend on the processing

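The number of probe sets called in leaves (954, with 433 higher and 521 lower in A. halleri) was 2163 with array weights (1084 higher, 1079 lower) and 3182 with the replicate block (1482 higher, 1700 lower). It was 288 with each pair as a random block (137 higher, 151 lower), 81 with pair means (27 higher, 54 lower) and 2363 with the replicate block and pairs as a random block (1095 higher, 1268 lower). Control arrays alone gave 27 (9 higher, 18 lower), high zinc arrays alone 132 (57 higher, 75 lower), and the groups as printed 0. The other alternatives, which changed normalization, pseudocount, filter, model or eBayes settings, gave 773 to 1083, and the block with pair means 1299. Leaving out 1 array gave 560 to 901, with 245 to 415 higher and 310 to 493 lower.

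The count of differences between the organs (89) was 623 with array weights, 156 with the replicate block, 24 with pairs as a random block and 139 without serial 24. Leaving out 1 leaf array gave 65 to 102.

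Of 49 called named genes, 42 kept their call in all 12 fits without 1 array, and 0 reversed in any fit. The uncalled ZIP9 changed sign, to 0.10 with high zinc arrays alone, and over the fits without 1 array it ran from -0.12 to 0.05, above 0 without A. halleri control array 2 (0.0496) and high zinc array 2 (0.0024). Pairs as a random block kept 37 of the 49 calls and pair means 23. The causes were not tested. The arrays carry no species-matched probes, and signals under 16 leave the size of a difference open to the pseudocount.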

Other observations

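The genes below were chosen after their values were seen, and the differences are log2(signal + 16), A. halleri minus A. petraea, in leaves. Close copies of a gene lay on opposite sides. AT3G06680, the other L29 ribosomal protein gene, differed by -2.71 ± 0.41 (limma adjusted p = 0.00165) where AT3G06700 differed by 2.65, and in roots the values were -2.84 and 3.08. BUB3.1 and BUB3.2, of the spindle checkpoint, differed by 1.02 ± 0.21 and -1.17 ± 0.24. JAL22 and JAL23, neighbouring jacalin lectin genes, differed by 1.48 ± 0.21 and -1.64 ± 0.37, and the call of JAL23 was lost in 2 of 12 fits that each left out 1 array. AT2G27710, a P2 protein of the ribosome stalk, differed by -2.54 ± 0.23, opposite to the P1 protein AT5G47700 at 2.77. Whether the signal of a probe set comes from one copy or several in either species was not tested.

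MSRB9 and MSRB6, which repair oxidised methionine, differed by 2.51 ± 0.38 (adjusted p = 0.00150) and 2.39 ± 0.48 (adjusted p = 0.00991), with MSRB9 medians of 865.55 for A. halleri and 131.7 for A. petraea. SRX, which repairs oxidised peroxiredoxin, differed by 1.22 ± 0.31 (adjusted p = 0.0360). SWEET17, a fructose carrier of the vacuole, differed by 1.96 ± 0.52 (adjusted p = 0.0432), and 8 of 12 fits that each left out 1 array lost its call, as they did for SRX. The gene for bZIP19, a transcription factor of the zinc deficiency response, differed by -1.35 ± 0.22 (adjusted p = 0.00254). Its signals were 37.5, 61.7 and 79.4 at the lowest, median and highest A. halleri array and 121.2, 182.85 and 219.4 in A. petraea, without overlap. Its root difference was -0.42 (adjusted p = 0.401), and the difference between the organs was not called, at -0.93 (adjusted p = 0.365). With pairs averaged its leaf call was lost (adjusted p = 0.111). CYP71B35 and CYP71B34, of the same family as CYP71B26, differed by -1.91 ± 0.27 and -0.92 ± 0.16.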
